A study of Mus musculus with 3 samples.

Results

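Transcripts of 10 genes for glucose transporters and for proteins that move the transporter GLUT4 were described in 3T3-L1 adipocytes after exposure to glucose oxidase. The genes were taken by name, as a set drawn up with earlier results of these data known: the class I transporters Slc2a1, Slc2a2, Slc2a3 and Slc2a4, the class III transporters Slc2a8, Slc2a10 and Slc2a12, the GLUT4 vesicle protein Lnpep and the Rab GTPase-activating proteins Tbc1d1 and Tbc1d4. In the platform annotation, 9 of the 10 had at least 1 probe set assigned to that gene alone, 21 probe sets in all, among 18194 genes and 34958 such probe sets. Lnpep had no such probe set in the annotation used and was not analysed here. The 3T3-L1 line comes from mouse embryo fibroblasts and can be turned into fat cells in culture, while glucose oxidase, added to the medium, releases hydrogen peroxide from glucose. There was 1 group, of 3 arrays labelled as replicates, from cells described as insulin resistant. The labels give neither the dose nor the time of glucose oxidase. A treatment time is stated in the authors' paper but was not used here. Control arrays were not analysed here. All values are therefore levels after treatment, with no fold change against untreated cells and no test of the treatment. Whether the replicates were separate cultures is not given, so their spread may be technical.

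Facilitative glucose transporters carry glucose across membranes down its gradient. In fat and muscle cells, insulin draws GLUT4 from intracellular vesicles to the plasma membrane, which speeds up glucose uptake. Without insulin, the Rab GTPase-activating proteins TBC1D4 and TBC1D1 keep Rab proteins of the vesicles inactive, and phosphorylation by AKT relieves this restraint. An array measures the transcripts of these genes, not where the transporter sits in the cell.

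Each probe set was given as log2 of its deposited intensity. It was called above background when all 3 arrays exceeded the 95th percentile of 83 probe sets that measure olfactory, vomeronasal or taste receptors. This limit was a log2 intensity of 7.59. Levels of different probe sets depend on their probes and were set only against this limit, not against each other as amounts of transcript. By this rule, 6 of the 9 measured genes were above background, Slc2a1, Slc2a4, Slc2a8, Slc2a10, Tbc1d1 and Tbc1d4, whereas Slc2a2, Slc2a3 and Slc2a12 were not. The share over all genes was 54.2%, and with 9 genes the 66.7% found here is not read as a result about them. Counted by probe set, 10 of the 21 were above background, against 45.0% of all probe sets with 1 gene. Slc2a1, Slc2a4, Slc2a8 and Tbc1d4 kept this call in all 10 alternative settings, Slc2a10 in 7 of the 10 and Tbc1d1 in 6 of the 10. Slc2a2, Slc2a3 and Slc2a12 were above background in 0 of the 10.

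**Figure D1:**
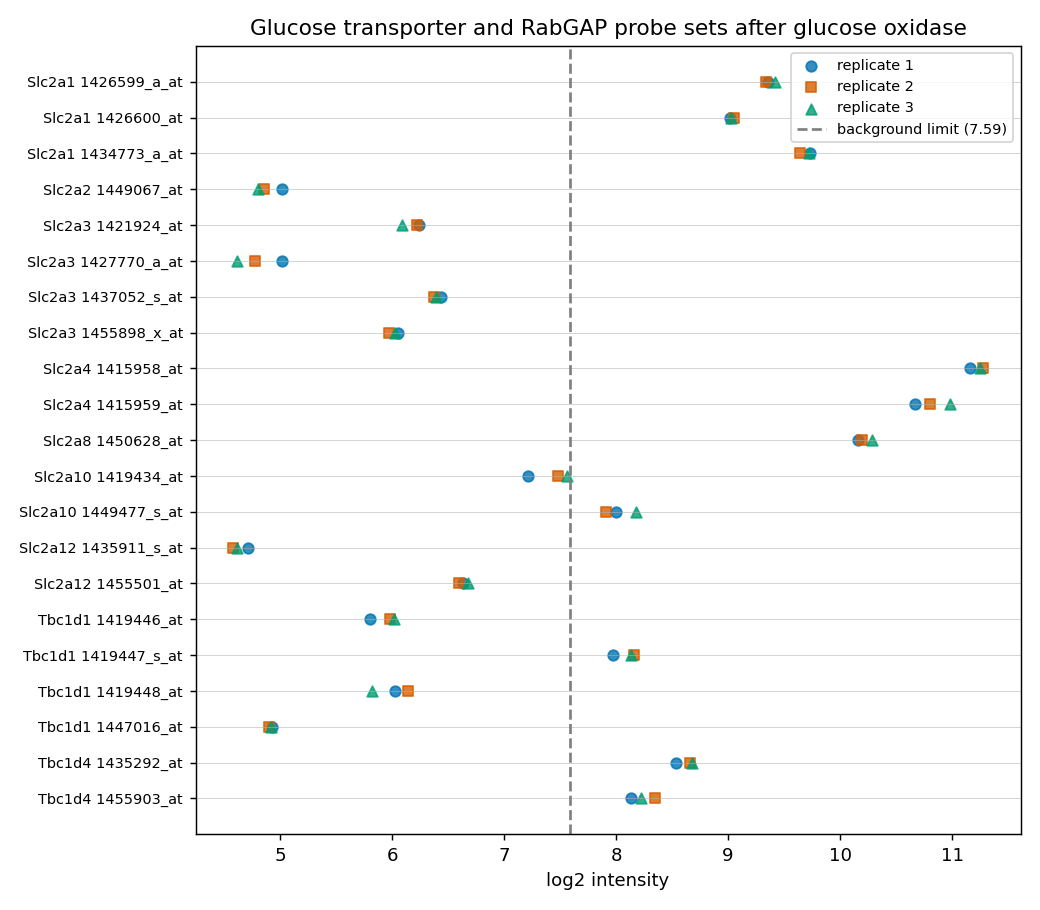
Log2 intensity (x axis) of the 21 probe sets of the 9 measured genes (y axis, gene and probe set), with 1 symbol per replicate and the background limit of 7.59 as a dashed line. The 3 symbols of a probe set lie close together, and 10 probe sets lie to the right of the line in every replicate.

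Slc2a4, which encodes the insulin-responsive transporter GLUT4, was well above background on both of its probe sets. Probe set 1415958_at was at a log2 intensity of 11.16, 11.28 and 11.25 in replicates 1, 2 and 3, a mean of 11.23 ± 0.06 (SD, n = 3) and 3.64 above the limit. Probe set 1415959_at was at 10.67, 10.80 and 10.98, a mean of 10.82 ± 0.16 (SD, n = 3). Replicate 1 was the lowest array on both, while the highest was replicate 2 on the former and replicate 3 on the latter. The distance from the lowest to the highest array was 1.08-fold on 1415958_at and 1.24-fold on 1415959_at. Of all probe sets above background, 98.0% had a smaller SD than 1415959_at and 62.5% a smaller one than 1415958_at, so the wide spread was not shared by both Slc2a4 probe sets.

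Slc2a1 encodes GLUT1, which supplies most cell types with glucose at rest. All 3 of its probe sets were above background, with little spread. Probe set 1434773_a_at was at 9.73, 9.65 and 9.72 in replicates 1, 2 and 3 (mean 9.70 ± 0.05, SD, n = 3), and 1426599_a_at at 9.35, 9.34 and 9.42 (mean 9.37 ± 0.04, SD, n = 3). Probe set 1426600_at was at 9.01, 9.05 and 9.03 (mean 9.03 ± 0.02, SD, n = 3), a spread smaller than that of all but 8.7% of the probe sets above background. The arrays fell in a different order on each of the 3 probe sets, and no array was lowest on all of them.

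The other class I transporters were not above background on any probe set. Slc2a2 encodes GLUT2, the low-affinity transporter of liver and pancreatic beta cells, and its only probe set was at 5.01, 4.85 and 4.80 (mean 4.89 ± 0.11, SD, n = 3). Its mean minus the limit was -2.70, and 34.9% of the 83 receptor probe sets were lower. Slc2a3 encodes GLUT3, the high-affinity transporter best known from neurons. Its 4 probe sets had means of 4.80 ± 0.20, 6.02 ± 0.04, 6.19 ± 0.08 and 6.40 ± 0.03 (SD, n = 3), the last of them on a probe set whose suffix (_s_at) marks probes that can bind transcripts of more than 1 gene. All 12 of its values lay below the limit, and replicate 1 was the highest array on each probe set. Values in this range are within those of receptor probe sets, which had a median of 5.79, so their order between arrays carries little.

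The 250 promoter bases before the start of Slc2a1 (chr4:119108495-119108744, plus strand) and Slc2a2 (chr3:28697653-28697902, plus strand) are shown from RefSeq (build GRCm38.p6). They are examples of a transporter gene above and one below background, with CG pairs in capitals, 13 and 2 of them. Of the transporter promoters described below, that of Slc2a1 had the most CG pairs and that of Slc2a2 the fewest.
Slc2a1: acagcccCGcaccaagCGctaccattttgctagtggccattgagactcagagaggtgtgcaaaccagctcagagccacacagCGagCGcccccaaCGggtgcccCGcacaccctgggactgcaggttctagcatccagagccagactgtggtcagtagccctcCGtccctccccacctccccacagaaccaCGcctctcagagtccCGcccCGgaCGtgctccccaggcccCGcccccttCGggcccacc
Slc2a2: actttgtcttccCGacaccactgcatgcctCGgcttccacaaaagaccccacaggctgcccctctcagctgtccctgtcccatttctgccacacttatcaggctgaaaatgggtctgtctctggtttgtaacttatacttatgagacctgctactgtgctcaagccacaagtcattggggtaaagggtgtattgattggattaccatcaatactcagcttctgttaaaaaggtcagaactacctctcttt

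Among the class III transporters, Slc2a8 was well above background. It encodes GLUT8, a transporter held largely on intracellular membranes. Its only probe set was at 10.16, 10.19 and 10.28 in replicates 1, 2 and 3 (mean 10.21 ± 0.06, SD, n = 3), 2.62 above the limit, with all arrays within 1.09-fold.

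Slc2a10, which encodes GLUT10, an intracellular transporter whose human gene is mutated in arterial tortuosity syndrome, lay at the limit. Probe set 1449477_s_at, whose probes can bind transcripts of more than 1 gene, was at 8.002, 7.906 and 8.174 (mean 8.03 ± 0.14, SD, n = 3). The gene's other probe set, 1419434_at, was at 7.22, 7.48 and 7.56 (mean 7.42 ± 0.18, SD, n = 3), below the limit in each array. Its call thus rested on 1449477_s_at, and it was not above background without probe sets that can cross-hybridise. Slc2a12, which encodes GLUT12, was below the limit on both probe sets, at 6.64, 6.60 and 6.68 (mean 6.64 ± 0.04, SD, n = 3) and at 4.71, 4.58 and 4.61 (mean 4.64 ± 0.07, SD, n = 3).

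The RabGAP genes differed in how firmly they were detected. Tbc1d4, which encodes the AKT substrate AS160, was above background on both probe sets. Probe set 1435292_at was at 8.53, 8.66 and 8.67 in replicates 1, 2 and 3 (mean 8.62 ± 0.08, SD, n = 3), and 1455903_at at 8.14, 8.34 and 8.22 (mean 8.23 ± 0.11, SD, n = 3). Replicate 1 was lowest on both, by 0.09 and 0.10 below the respective means. Tbc1d1 encodes the paralogue best known from skeletal muscle, and 1 of its 4 probe sets was above background. That probe set, 1419447_s_at, was at 7.97, 8.16 and 8.13 (mean 8.09 ± 0.10, SD, n = 3), and its suffix again marks probes that can bind transcripts of more than 1 gene. The others had means of 5.936 ± 0.116, 5.997 ± 0.167 and 4.916 ± 0.015 (SD, n = 3), and all of their values were below the limit. Taking the median of the gene's probe sets put Tbc1d1 at 5.97. The difference in detection between Tbc1d4 and Tbc1d1 is one of probe sets and was not tested as a difference in amount.

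Between arrays, the 10 probe sets of these genes above background differed by at most 1.24-fold. The SD of the 10 probe sets above background ran from 0.02 to 0.16, with a median of 0.070, against a median of 0.051 over all 15730 probe sets with 1 gene above background. In 7 of the 10 the SD was over this overall median, and the others were those of Slc2a1. Of all probe sets above background, 96.2% had a smaller SD than 1449477_s_at of Slc2a10. This share was 90.5% for 1455903_at of Tbc1d4 and 89.2% for 1419447_s_at of Tbc1d1. Probe sets of 1 gene share its transcript, so the 10 SDs are not independent values. Replicate 1 was the lowest array in 7 of the 10, namely both of Slc2a4, both of Tbc1d4, and those of Slc2a8, Tbc1d1 and, by 0.02, 1426600_at of Slc2a1. Over all probe sets above background this share was 47.4%, so a lower replicate 1 was not particular to these genes. Replicate 2 was lowest in the other 3, of which 2 belong to Slc2a1 and 1 to Slc2a10, and replicate 3 in 0. Over all probe sets above background the shares lowest in replicates 2 and 3 were 24.7% and 27.9%. The median difference of replicate 3 from replicate 1 was 0.11 on the log2 scale, against 0.03 over all probe sets above background.

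**Figure D2:**
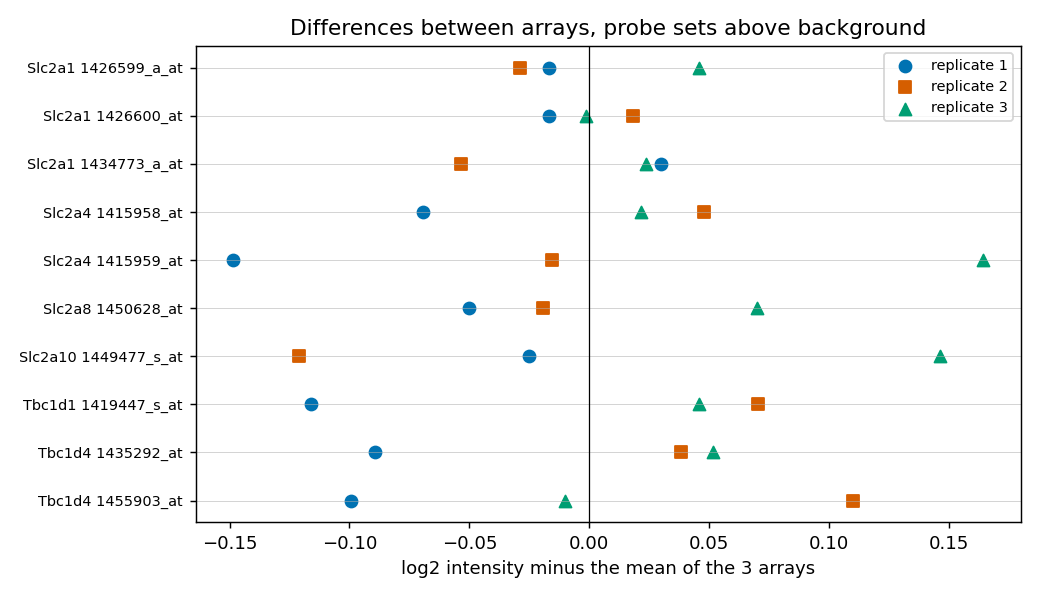
Log2 intensity minus the mean of the 3 arrays (x axis) for the 10 probe sets above background (y axis, gene and probe set), with 1 symbol per replicate. Replicate 1 is the leftmost symbol in 7 of the 10 rows, and the widest row is 1415959_at of Slc2a4, from -0.15 to 0.16.

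**Figure D3:**
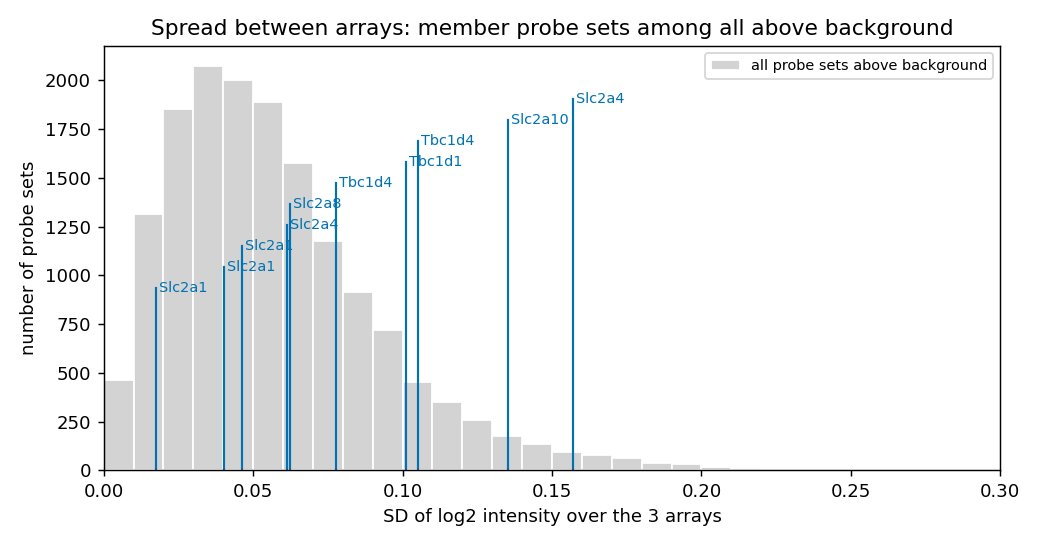
Number of probe sets (y axis) by SD of log2 intensity over the 3 arrays (x axis, bins of 0.01) for all 15730 probe sets with 1 gene above background, with the 10 probe sets of the described genes as blue lines whose height carries no value. The Slc2a1 lines lie below the overall median of 0.051, from 0.02 to 0.05, and 1 of the Slc2a4 lines is the farthest right, at 0.16.

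The labels name the tissue preadipocytes, but the source name gives adipose cells and the growth protocol differentiated ones. All 6 measured adipocyte markers were above background, led by Adipoq at 14.49 ± 0.03 and Fabp4 at 14.49 ± 0.02 (SD, n = 3), and so were 5 of 6 preadipocyte and fibroblast markers, led by Col3a1 at 13.91 ± 0.02 and Dlk1 at 13.24 ± 0.10 (SD, n = 3). The Dlk1 value was that of 1449939_s_at, whose probes can bind transcripts of more than 1 gene. The other Dlk1 probe set, 1442724_at, was at a mean of 7.19, below the limit in each array. Without probe sets that can cross-hybridise, 4 preadipocyte and fibroblast markers were above background. Both kinds of transcript were thus in these samples, and fewer cells of a type cannot be told apart from less RNA per cell. The mean over the fibroblast list was 11.18, 11.03 and 11.14 in replicates 1, 2 and 3, and all 5 markers above background were lowest in replicate 2. This is the array in which 2 of the Slc2a1 probe sets and 1449477_s_at of Slc2a10 were also lowest, and the part of cell make-up in their values was not tested. Replicate 2 was lowest in 24.7% of all probe sets above background, near the 3 of 10 of the described genes. The mean over the adipocyte list was 13.999, 13.980 and 13.984.

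Few markers were above background of the cell types in which GLUT2 and GLUT3 are best known, beside 54.2% of all genes. Whether cell type bears on the values of Slc2a2 and Slc2a3 was not tested. Of hepatocyte markers, 2 of 6 were above background (Ttr at 8.49 ± 0.01 and Hnf4a at 8.44 ± 0.03, SD, n = 3), while Alb, the albumin gene, named after its value was seen, was at 6.61 ± 0.12 (SD, n = 3). Of pancreatic beta cell markers it was 1 of 4 (Ins2 at 7.79 ± 0.08, SD, n = 3), and of neuron markers 0 of 6. The count was 2 of 6 for macrophage markers (Lyz2 at 11.19 ± 0.09 and Csf1r at 8.70 ± 0.10, SD, n = 3) and 1 of 6 for skeletal muscle markers (Ckm at 8.25 ± 0.04, SD, n = 3). Some of these genes passed on 1 of several probe sets, as did Ttr on 1 of 4, so passing the limit does not by itself show that a transcript was present.

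Other genes of the GLUT and sodium-glucose cotransporter families, listed here as hexose transporters, were mostly near or below the limit. Slc2a5, which encodes the fructose transporter GLUT5, was at 8.31, 8.17 and 8.26 in replicates 1, 2 and 3 (mean 8.25 ± 0.07, SD, n = 3). Slc2a9, which encodes the urate transporter GLUT9, was at 7.93 ± 0.02 on 1 of its 2 probe sets, and the renal sodium-glucose cotransporter gene Slc5a2 at 7.78 ± 0.11 on 1 of 2 (SD, n = 3). Slc2a6, Slc2a13 and the intestinal cotransporter gene Slc5a1 were below the limit, at 5.65 ± 0.09, 6.67 ± 0.08 and 6.03 ± 0.10 (SD, n = 3). In all, 3 of the 6 measured genes of this list were above background, against 54.2% of all genes, and with the limit at the 99th percentile 0 were.

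By contrast with the transporters, nearly every gene of the machinery that sorts and fuses GLUT4 vesicles was above background, 46 of 47 (97.9%) beside 54.2% of all genes. Many of these genes serve membrane traffic in every cell, and the count is not particular to GLUT4. All 16 cargo and sorting genes passed. The highest were Cltc, the clathrin heavy chain gene, at 11.91 ± 0.08, Sort1, which encodes the sorting receptor sortilin, at 11.71 ± 0.06, and the vesicle SNARE gene Vamp3 at 11.46 ± 0.03 (SD, n = 3). Partners better known from GLUT4 vesicles, named after their values were seen, were Vamp2 at 10.16 ± 0.01, Lrp1 at 10.83 ± 0.01, Trarg1 at 10.57 ± 0.08 and Aspscr1, which encodes the tether TUG, at 9.89 ± 0.11 (SD, n = 3).

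All 10 Rab GTPases and exchange factors were above background. Rab14 was at 12.12 ± 0.03 and Rab5a at 11.89 ± 0.05 (SD, n = 3). Rab10, the Rab on which TBC1D4 acts in adipocytes, was above background on each of its 3 probe sets, the highest at 11.30, 11.33 and 11.46 in replicates 1, 2 and 3 (mean 11.36 ± 0.09, SD, n = 3). Dennd4c, which encodes an activator of RAB10 and was named after its value was seen, was at 8.65 ± 0.01 (SD, n = 3).

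Of the 21 tethering, docking and fusion genes, 20 were above background. Myo1c, which encodes an unconventional myosin, was at 12.17 ± 0.04, the GTPase gene Rac1 at 12.02 ± 0.03 and Rhoq, which encodes TC10, at 11.95 ± 0.05 (SD, n = 3). The plasma membrane SNARE genes Stx4a and Snap23 were at 10.34 ± 0.06 and 10.36 ± 0.03 (SD, n = 3), and Stxbp3, which encodes the syntaxin partner MUNC18C, was at 9.63 ± 0.03 (SD, n = 3), all 3 named after their values were seen. The exception was Doc2b, which encodes a calcium sensor of vesicle fusion, at 6.56, 6.48 and 6.61 in replicates 1, 2 and 3 (mean 6.55 ± 0.07, SD, n = 3). On the highest probe set of each of the 47 genes the SD ran from 0.003 to 0.11, with a median of 0.041. Other probe sets of these genes above background spread more, up to 0.16 on 1429296_at of Rab10 (9.60, 9.67 and 9.90 in replicates 1, 2 and 3). That was as wide as 1415959_at of Slc2a4, and the SD was 0.15 on 1449551_at of Myo1c. Of the 76 probe sets of these genes above background, 49 (64.5%) were lowest in replicate 1, beside 47.4% of all probe sets above background. This difference was not tested.

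**Figure D4:**
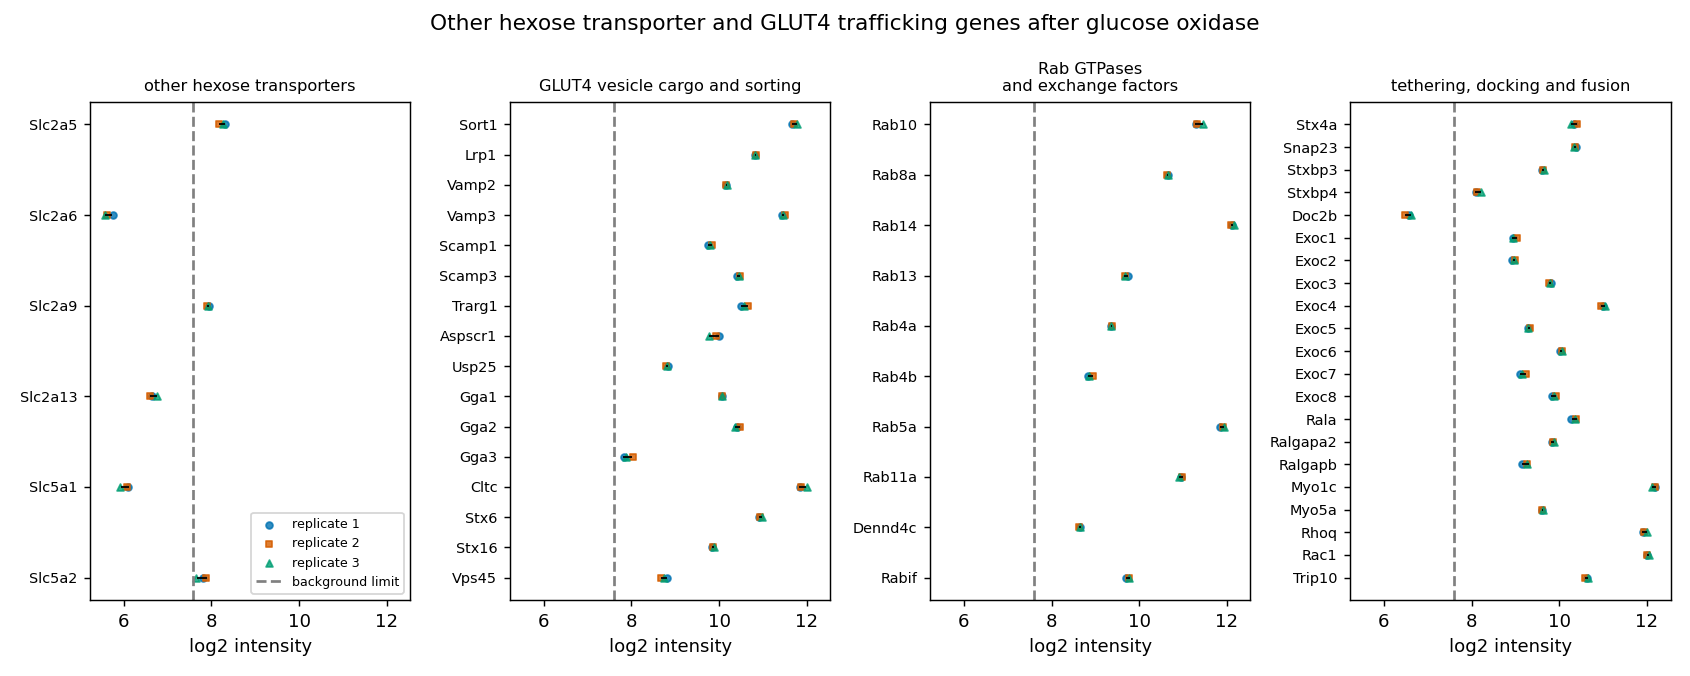
Log2 intensity (x axis) of other hexose transporter genes and of 3 lists of GLUT4 trafficking genes (y axis), each gene on its probe set with the highest mean, with 1 symbol per replicate, bars for the SD around the mean (n = 3) and the background limit of 7.59 as a dashed line. Of the trafficking genes, Doc2b alone lies left of the line, and positions do not rank the genes by amount of transcript.

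**Figure D5:**
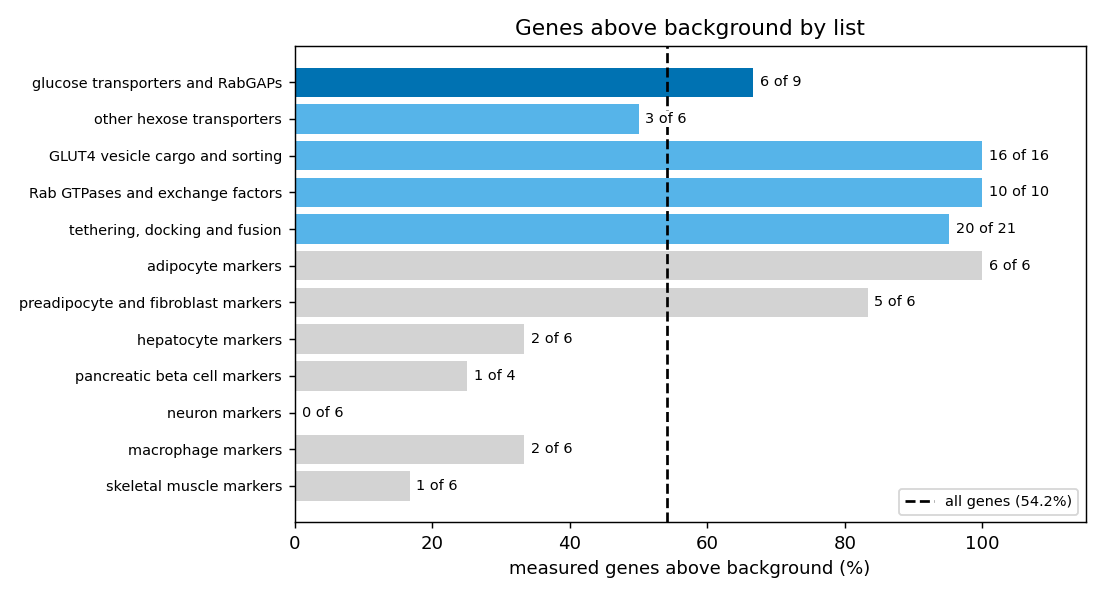
Percentage of measured genes above background (x axis) in each list (y axis), with counts beside the bars and the 54.2% of all genes as a dashed line. The 3 trafficking lists and the adipocyte list reach 95.2% to 100%, the described genes 66.7%, and the markers of other cell types at most 33.3%, the fibroblast list apart.

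Promoter sequences, from 250 bases before to 50 after the start of the transcript, were taken from the same source for 8 of the 10 genes, 9 promoters in all since Tbc1d1 had 2. Those of Slc2a3 and Slc2a4 were not analysed here. In the genes above background, GC content was 65.3% for Slc2a1, 55.7% for Slc2a8, 60.7% for Slc2a10, 69.3% and 74.0% for Tbc1d1 and 55.7% for Tbc1d4. In Slc2a2 and Slc2a12, which were not above background, it was 48.0% and 47.0%, and in Lnpep 69.3%. The calls of Slc2a10 and Tbc1d1 depended on the setting, and a link between GC content and level was not tested. Over measured genes with a promoter in this source, the median was 61.3% for 10268 promoters of 8022 genes above background. It was 54.0% for 7842 promoters of the other 6431. CG pairs numbered 18 in Slc2a1, 14 in Slc2a8, 12 in Slc2a10, 26 and 33 in Tbc1d1 and 12 in Tbc1d4. They numbered 6 in Slc2a12, 30 in Lnpep and 2 in Slc2a2, the fewest of the described promoters. The medians over the same 2 sets of promoters were 21 for genes above background and 8 for the rest.

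Matches to 4 motifs were counted on both strands. TGACNNNGC, the core bound by NRF2, was in 0 of the 9 promoters and in 12.4% of all 32851. CACGTG, a form of the E-box, was in 0 and 7.2%, and TGACGTCA (the cyclic AMP response element) in 0 and 1.8%. Other forms of the E-box, which is CANNTG, were not counted. A looser pattern, CTA and TAG with any 4 bases between them, was in 2 of the 9, those of Slc2a10 and Slc2a12, and in 3.7% of all. The site bound by MEF2 has only A or T between these ends, and neither match did, so neither is a match to that site.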

How the data were processed

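RNA of 3 glucose oxidase samples was hybridised to mouse4302 Affymetrix arrays. RMA background correction and normalization were done by the authors in affyPLM (version not given in the sources used here). They deposited linear intensities, whose array medians were 126.88 to 127.63. The log2 of each deposited intensity was taken, with no further scaling. Which other arrays were normalized alongside, and any later scaling, are unknown. Precision is limited by the number of arrays.

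Genes were named from probe sets that the platform annotation assigns to 1 gene. All 102 measured genes of the lists (108 in all) had the same symbol for their Entrez identifier in RefSeq (GRCm38.p6). A gene was above background if any probe set exceeded the limit of 7.59 in all arrays, and its level was that of its highest probe set. Members and lists were chosen with earlier results of these data known. Named genes were all members, at most the 3 highest genes and those not above background of each transporter and trafficking list, and for markers the 2 highest (adipocyte, fibroblast) or those above background (other cell types). Others are said to be named afterwards. With 1 group no test was run. Planned protein features were not computed, and proteins were not used here. Python 3.11.15, pandas 2.3.3, numpy 2.4.6 and matplotlib 3.10.9 were used.

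Alternatives were the 99th and 90th percentile, other background genes, the mean of arrays, the median of probe sets, leaving out cross-hybridising probe sets, centring and leaving out each array.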

Additional observations from a re-analysis of the deposited data

How the results depend on the processing

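No paired analysis was possible because all 3 arrays belong to 1 group. The number of described genes above background, 6, was 4 to 6 over the alternatives, and that of their probe sets, 10, was 7 to 10. The level of Slc2a10, 8.03, was 7.42 without probe sets that can cross-hybridise, and that of Tbc1d1, 8.09, was 5.997, both below the limit. Both genes also lost their call at the 99th percentile (limit 8.20) and with 67 keratin-associated and defensin probe sets as background (limit 8.06). Under the latter, the mean of Tbc1d1 was still over the limit but replicate 1, at 7.97, was not. With the median of probe sets Tbc1d1 lost its call too. Of the level changes over 1 SD, 10 in all, none moved Slc2a1, Slc2a4, Slc2a8 or Tbc1d4 below the limit, or Slc2a2, Slc2a3 or Slc2a12 above it. Other hexose transporters above background, 3, were 0 at the 99th percentile, and 1 each with keratin-associated and defensin genes and with the median of probe sets. Cargo and sorting genes, 16, were at fewest 14, without cross-hybridising probe sets. Rab GTPases and exchange factors, 10, were at fewest 8, and tethering, docking and fusion genes, 20, at fewest 16, both with the median of probe sets. Preadipocyte and fibroblast markers, 5, were 4 without cross-hybridising probe sets. Hepatocyte markers, 2, were 0 with the median of probe sets and 1 without cross-hybridising probe sets. The 1 beta cell marker was lost, leaving 0, at the 99th percentile, with the other background genes and without cross-hybridising probe sets. Neuron markers, 0, were 2 at the 90th percentile and 1 with the mean of the arrays. On leaving out each array in turn they were 0 to 1, the 1 being Rbfox3 without replicate 1. What causes these changes was not tested. The calls of Slc2a10 and Tbc1d1 each rested on 1 probe set that can cross-hybridise, with a mean 0.44 and 0.50 above the limit.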
